A study of Homo sapiens with 12 samples.

Results

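The genes described here are a list of 50 genes with known roles in mitosis and cytokinesis, among the 31585 gene loci measured by RNA sequencing in A375 cells. A375 is an established human melanoma line. The cells were stably transduced with MSCV-IRES-Hygro retrovirus and selected with hygromycin, and there were 4 groups of 3 libraries. Control cells carried the empty vector. YAP-S127A cells carried human YAP with the S127A mutation, which removes a LATS phosphorylation site that keeps YAP in the cytoplasm. YAP-S94A,S127A cells carried YAP with the S127A and the S94A mutations, the latter of which prevents binding to the TEAD transcription factors. YAP-2SA cells carried YAP with the S127A and S381A mutations, which also removes a LATS site that leads to degradation, and the group follows the sample titles, because another label of the same samples adds S94A. RNA was taken 24 h after plating according to the series description, while the study's methods give a longer time in culture. Endogenous YAP was present in all groups, and the study describes 3 independent RNA samples of stably transduced cells per group. It does not describe separate transductions, so the spread between replicates may not include the spread between transductions. A difference between constructs and a difference between transduced lines cannot be told apart.

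Mitosis begins when cyclin B and CDK1 are activated by CDC25 phosphatases. Polo, Aurora and BUB1 kinases, kinesin motors and kinetochore proteins then build the spindle and attach the chromosomes to it. The spindle checkpoint holds the ubiquitin ligase APC/C inactive until all chromosomes are attached, after which CDC20 activates it, separase cuts cohesin and the cells divide by cytokinesis. Most of these genes are transcribed in the G2 phase and in mitosis, under the control of the MuvB complex with B-MYB and FOXM1, while genes of DNA synthesis are expressed earlier under the control of E2F factors. In bulk RNA, more cells in mitosis and more RNA of these genes per cell cannot be told apart.

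All 50 genes were found in the deposited table, each on 1 locus, and all 50 passed the filter of at least 1 FPKM in at least 3 libraries that left 15055 loci. FPKM is the number of fragments per kilobase of transcript, scaled to the number of mapped fragments of the library. The locus of BUB1B also lists PAK6, so its value is uncertain as to the gene. The mean level in Control ranged from 7.60 FPKM for the kinesin KIF18A to 163.8 FPKM for UBE2C, the ubiquitin-conjugating enzyme of the APC/C. Summed FPKM per library ranged from 790865 to 901558, and the libraries of a group correlated with r between 0.960 and 0.975 across loci, which are not independent replicates. The number of reads is unknown.

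The library labelled Control replicate 3 had a YAP1 level of 172 FPKM, against 34.1 and 33.0 FPKM in Control replicates 1 and 2 and 129.7 to 187 FPKM in the 9 libraries of the mutants. The YAP1 level therefore goes against the label of this library, and the counts against Control are also given without it, with fold changes for the genes on which the results turn. Of the 3 Control libraries it was the highest for 2 of the 50 genes, while Control replicate 1 was the highest for 36. The pigment cell genes PMEL, MLANA, TYR and DCT were under 1 FPKM in every library, although the cells are labelled as melanoma.

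The promoters of 8 of the genes are printed to show the motifs of the cell cycle that they carry, for 6 genes that rose in YAP-2SA cells (ANLN, CEP55, CDC20, KIF23, PLK1 and CCNB2) and 2 that did not pass the test (KIF11 and CENPE). They are the 130 bases before the RefSeq transcription start in GRCh38.p14, 5′ to 3′ on the strand of the gene. Capitals mark TTTGAA, the core of the cell cycle homology region bound by MuvB complexes, and CCAAT, the core of the NF-Y motif, on either strand (TTCAAA and ATTGG on the reverse strand).
ANLN, chr7:36389732-36389861, plus strand: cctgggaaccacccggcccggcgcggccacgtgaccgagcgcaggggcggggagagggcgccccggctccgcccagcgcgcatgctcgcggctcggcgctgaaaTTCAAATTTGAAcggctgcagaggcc
CEP55, chr10:93496482-93496611, plus strand: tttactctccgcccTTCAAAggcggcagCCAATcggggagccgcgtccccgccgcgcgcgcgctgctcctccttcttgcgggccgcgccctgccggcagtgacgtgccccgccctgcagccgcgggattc
CDC20, chr1:43358851-43358980, plus strand: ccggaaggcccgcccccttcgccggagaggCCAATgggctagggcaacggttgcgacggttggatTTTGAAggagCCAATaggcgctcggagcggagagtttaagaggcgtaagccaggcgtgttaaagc
KIF23, chr15:69414219-69414348, plus strand: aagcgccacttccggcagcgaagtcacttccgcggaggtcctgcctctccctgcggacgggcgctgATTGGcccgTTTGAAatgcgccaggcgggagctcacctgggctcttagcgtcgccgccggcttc
PLK1, chr16:23678759-23678888, plus strand: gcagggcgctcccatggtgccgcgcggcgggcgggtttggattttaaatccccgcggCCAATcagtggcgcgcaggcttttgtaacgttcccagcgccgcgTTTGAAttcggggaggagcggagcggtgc
CCNB2, chr15:59105016-59105145, plus strand: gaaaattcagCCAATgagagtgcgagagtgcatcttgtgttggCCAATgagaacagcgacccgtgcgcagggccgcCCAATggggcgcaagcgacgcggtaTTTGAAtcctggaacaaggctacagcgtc
KIF11, chr10:92593000-92593129, plus strand: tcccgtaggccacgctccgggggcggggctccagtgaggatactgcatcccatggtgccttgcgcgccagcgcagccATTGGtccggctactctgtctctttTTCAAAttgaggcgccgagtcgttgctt
CENPE, chr4:103198344-103198473, minus strand: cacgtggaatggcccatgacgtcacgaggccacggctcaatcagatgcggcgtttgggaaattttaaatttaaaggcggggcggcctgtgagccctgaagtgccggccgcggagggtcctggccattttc

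The RefSeq promoters, from 250 bases before to 50 bases after the start, were at hand for 43 of the 50 genes, as 53 promoters. TTTGAA was present on either strand in 34 of the 53 promoters (64.2%), against 15.2% of all 35116 promoters of this length. CCAAT was present in 39 (73.6%), against 34.6% of all promoters, and both motifs in 27 (50.9%), against 5.9%. GGAATG, the core of the TEAD motif, was present in 7 (13.2%), a share near the 14.0% of all promoters. The E2F motifs TTTCGCGC, TTTGGCGC and TTTCCCGC were present in 2 (3.77%), 2 (3.77%) and 1 (1.89%) of the 53 promoters, against 0.515%, 0.652% and 1.63% of all promoters. The printed promoter of ANLN holds TTTGAA on both strands, side by side, and that of CENPE holds neither capitalised motif but 1 GGAATG. In YAP-2SA against Control cells the 31 genes with TTTGAA had a median log2 fold change of 0.40 and the 12 without it a median of 0.52. Of the 31 genes with TTTGAA 23 rose, and of the 12 without it 11 rose. The 34 genes with CCAAT had a median of 0.45 and the 9 without it a median of 0.41. Of the 34 genes with CCAAT 27 rose, and of the 9 without it 7 rose. These differences were not tested. The promoters printed above are examples, and they do not show how often genes with or without a motif rose. A match of letters is a description of the sequence and not a bound site.

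The first question was how mitotic genes differ between cells with the most active YAP and Control cells. In YAP-2SA cells 40 of the 50 genes were higher than in Control cells and none was lower (limma, adjusted p under 0.05), against 22.9% of all loci tested that were higher, 19.5% that were lower and 42.3% called in either direction. The median log2 fold change of the 50 genes was 0.44, against 0.01 over all loci tested, and 49 of the 50 genes had a higher mean in YAP-2SA cells. The rises were moderate. ANLN passed 2-fold in the ratio of group means, alone among the 50 genes, while 7.59% of all loci were higher under that rule. In 43 genes all 3 YAP-2SA libraries were above all 3 Control libraries, against 28% of all loci. Without Control replicate 3 the genes that rose numbered 36, against 20% of all loci higher, and the median was 0.37. TTK, CENPA, KIF18A and KIF20B no longer passed, and all 50 genes had a higher mean in YAP-2SA cells. The YAP-2SA libraries were then above the 2 other Control libraries in 44 genes, against 30.2% of all loci. Counted by role without Control replicate 3, the genes that rose were 4 of 4 of cytokinesis, 5 of 9 kinesins, 5 of 6 cyclins and activators, 6 of 8 kinases, 4 of 5 checkpoint genes, 4 of 7 kinetochore genes, 4 of 6 spindle genes, 3 of 4 chromosome genes and FOXM1. The counts by role in the paragraphs below are with all 12 libraries. The log2 fold changes without Control replicate 3 were 1.04 for ANLN, 0.92 for CEP55, 0.88 for CDC20, 0.85 for KIF23, 0.79 for AURKB, 0.71 for CDC25B, 0.62 for ECT2, 0.59 for TACC3, 0.55 for FOXM1, 0.45 for MKI67, 0.43 for PLK1, 0.42 for CDK1, 0.40 for BIRC5, 0.37 for CCNB1 and 0.37 for TOP2A, and all 15 genes passed.

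**Figure D1:**
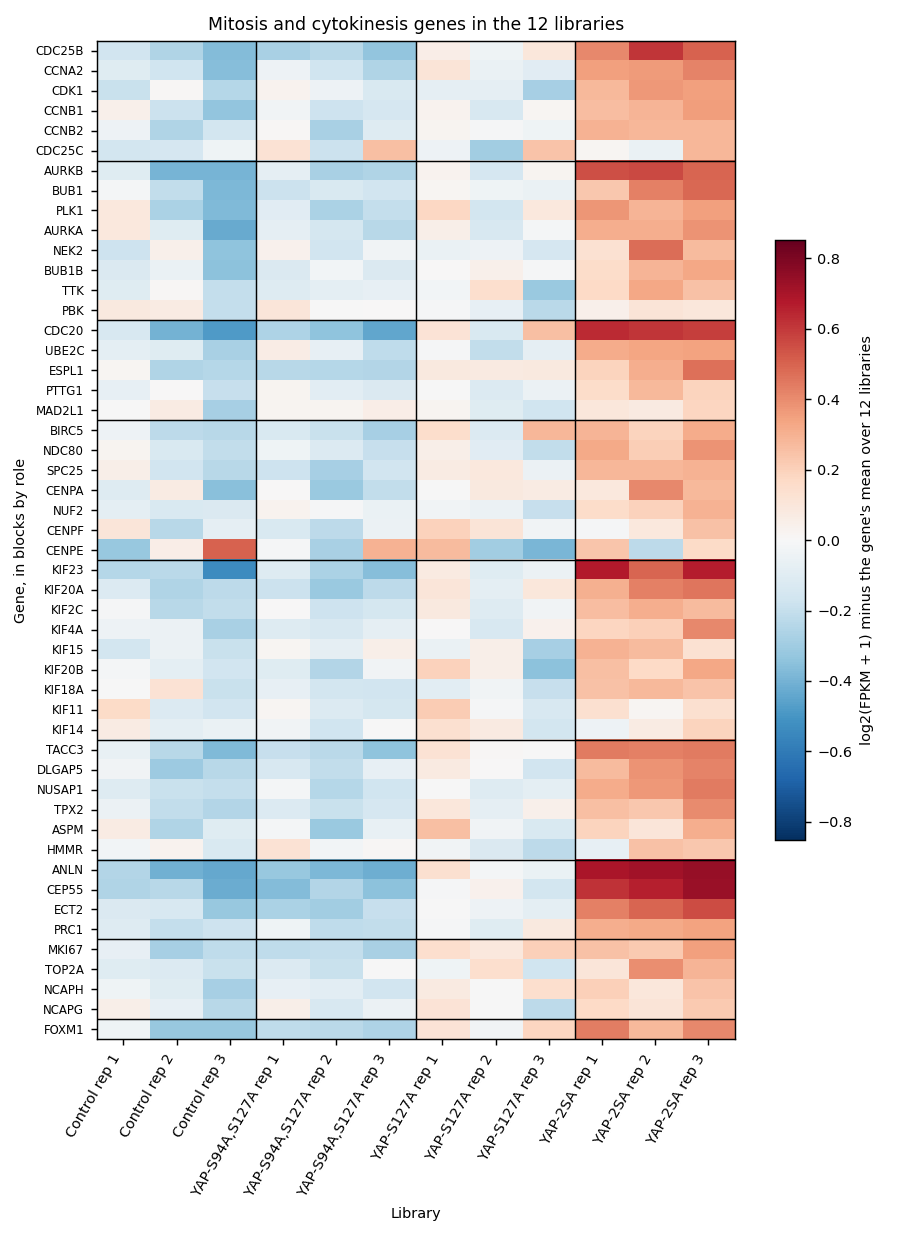
Level of each of the 50 genes (rows, in blocks by role) in each of the 12 libraries (columns), as log2(FPKM + 1) minus the mean of the gene over the libraries; red is above and blue below that mean. The YAP-2SA columns are red in nearly all rows, most deeply in ANLN and CEP55, and CENPE shows no order by group.

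Among the role groups, the 4 genes counted under cytokinesis had the highest median log2 fold change, 0.83, and all 4 rose, from 0.48 (PRC1) to 1.08 (ANLN). The ranking depends on how the genes were grouped. KIF23 (0.95) and KIF14 (0.10), which also act in cytokinesis, were counted with the kinesins. ANLN encodes anillin, which ties actin and myosin together in the contractile ring, and lies at chr7:36429430-36493400 in GRCh37. Its levels were 45.5, 40.7 and 39.9 FPKM in Control, 43.2, 41.4 and 40.4 FPKM in YAP-S94A,S127A, 59.7, 53.7 and 52.0 FPKM in YAP-S127A and 88.3, 89.5 and 91.2 FPKM in YAP-2SA cells. The YAP-S127A libraries lay above the Control and the YAP-S94A,S127A libraries and below the YAP-2SA libraries without overlap. The log2 fold change of ANLN in YAP-2SA against Control cells was 1.08 ± 0.06 (SE, n = 3 per group; limma adjusted p = 2.68e-07).

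CEP55, the midbody protein that recruits the ESCRT machinery for abscission, lies at chr10:95256369-95288849 in GRCh37. Its levels were 32.0, 32.4 and 28.4 FPKM in Control, 29.5, 32.2 and 29.9 FPKM in YAP-S94A,S127A, 38.1, 39.3 and 34.3 FPKM in YAP-S127A and 59.2, 61.3 and 64.3 FPKM in YAP-2SA cells. Control and YAP-S94A,S127A libraries overlapped, and the YAP-2SA libraries stood above all others. The log2 fold change in YAP-2SA against Control cells was 0.97 ± 0.07 (SE; limma adjusted p = 1.06e-06). The gene signature of the study, for which these libraries were part of the choice, includes CEP55, whose rise is thus not independent evidence of the direction. ECT2, the exchange factor that activates RhoA at the cleavage site, had 22.8, 22.6 and 19.7 FPKM in Control and 33.8, 35.5 and 37.1 FPKM in YAP-2SA cells (log2 fold change 0.69, limma adjusted p = 8.39e-06). PRC1, which bundles the microtubules of the central spindle, was higher by 0.48 on the log2 scale.

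**Figure D2:**
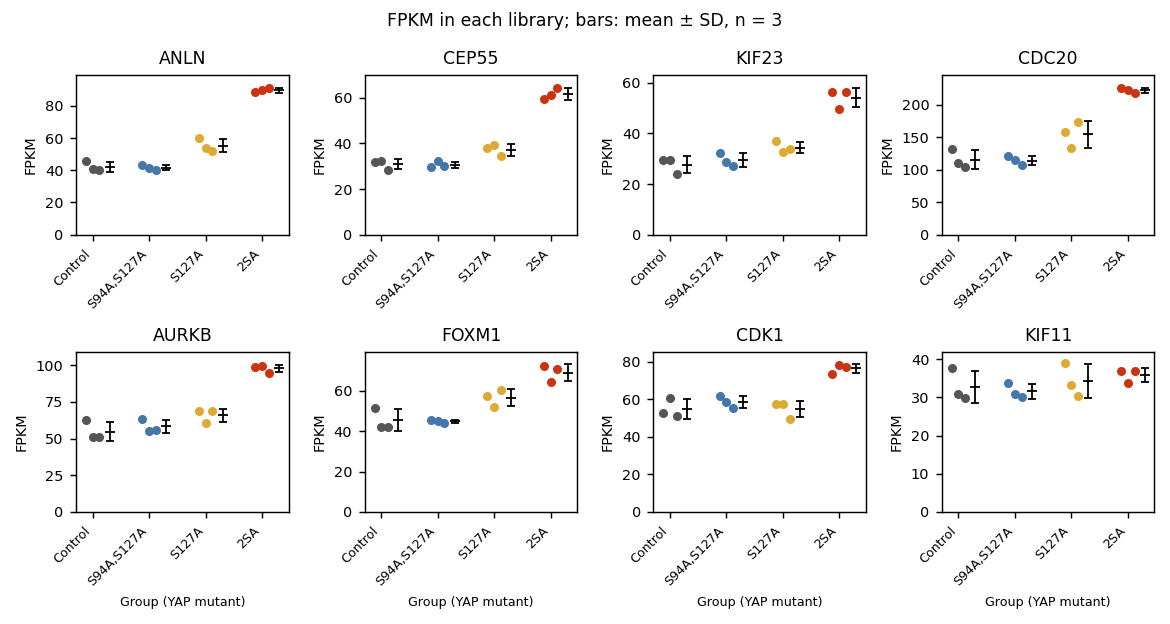
FPKM of 8 genes in each library (points) with the group mean and SD (black bars, n = 3), from a y axis that starts at 0. ANLN, CEP55, KIF23, CDC20 and AURKB stand clear of the other groups in YAP-2SA cells, while in KIF11 the 4 groups overlap.

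Of the 9 kinesin motors, 7 rose in YAP-2SA cells, with a median log2 fold change of 0.36 over the 9. KIF23, the motor subunit of the centralspindlin complex of cytokinesis, had 29.4, 29.7 and 23.9 FPKM in Control, 32.4, 28.9 and 27.0 FPKM in YAP-S94A,S127A, 37.0, 32.5 and 33.8 FPKM in YAP-S127A and 56.5, 49.8 and 56.2 FPKM in YAP-2SA cells. Its log2 fold change of 0.95 ± 0.10 (SE; limma adjusted p = 2.01e-05) was the highest of the kinesins. KIF20A, another motor of the central spindle, rose by 0.59 on the log2 scale. KIF11, which pushes the spindle poles apart, did not pass: it had 37.6, 30.9 and 29.9 FPKM in Control and 36.9, 33.9 and 36.9 FPKM in YAP-2SA cells (log2 fold change 0.13, limma adjusted p = 0.337). KIF14, which acts in cytokinesis, did not pass either (log2 fold change 0.10).

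Among cyclins, CDK1 and its activators 5 of 6 rose. CDK1, the kinase that starts mitosis, had 53.0, 60.9 and 51.0 FPKM in Control, 61.9, 58.8 and 55.4 FPKM in YAP-S94A,S127A, 57.5, 57.4 and 49.7 FPKM in YAP-S127A and 73.5, 78.5 and 77.5 FPKM in YAP-2SA cells. The 3 other groups overlapped, and the YAP-2SA libraries were above all of them. The log2 fold change of CDK1 was 0.47 ± 0.08 (SE; limma adjusted p = 0.000694). CCNB1, its cyclin partner, had 128, 109 and 98.0 FPKM in Control and 149, 152 and 159 FPKM in YAP-2SA cells (log2 fold change 0.46). CCNA2 and CCNB2, the other cyclins, rose by 0.59 and 0.44 on the log2 scale.

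The phosphatases that activate CDK1 differed in their values. CDC25B had 65.3, 61.2 and 56.5 FPKM in Control, 60.1, 62.0 and 57.7 FPKM in YAP-S94A,S127A, 76.1, 71.5 and 78.2 FPKM in YAP-S127A and 97.2, 112 and 104 FPKM in YAP-2SA cells. Its log2 fold change in YAP-2SA against Control cells was 0.76 ± 0.07 (SE; limma adjusted p = 6.43e-06). CDC25C, at 7.93, 8.01 and 8.71 FPKM in Control and 9.08, 8.59 and 11.1 FPKM in YAP-2SA cells, did not pass (log2 fold change 0.19 ± 0.15, limma adjusted p = 0.328). The difference between the changes of the 2 genes was not tested.

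Of the 8 genes counted as mitotic kinases, 7 rose, with a median log2 fold change of 0.47. AURKB, the kinase of the chromosomal passenger complex that corrects attachments and acts in cytokinesis, had 62.5, 50.8 and 50.9 FPKM in Control, 63.7, 55.4 and 56.1 FPKM in YAP-S94A,S127A, 68.7, 60.8 and 68.5 FPKM in YAP-S127A and 98.9, 99.8 and 95.1 FPKM in YAP-2SA cells. Its log2 fold change was 0.83 ± 0.09 (SE; limma adjusted p = 2.33e-05). PLK1, which acts from mitotic entry to cytokinesis, had 94.1, 73.1 and 67.8 FPKM in Control and 115, 108 and 113 FPKM in YAP-2SA cells (log2 fold change 0.52, limma adjusted p = 0.00452). BUB1 and BUB1B of the spindle checkpoint, AURKA and NEK2 of the centrosome, and TTK of the checkpoint rose by 0.58, 0.43, 0.48, 0.45 and 0.35 on the log2 scale. PBK, a kinase active in mitosis, was the member of the group that did not pass (log2 fold change 0.10).

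The checkpoint and APC/C genes rose in 4 of 5 cases. CDC20, the activator of the APC/C, had 132, 110 and 104 FPKM in Control, 121, 114 and 107 FPKM in YAP-S94A,S127A, 157, 133 and 173 FPKM in YAP-S127A and 226, 222 and 218 FPKM in YAP-2SA cells. The YAP-2SA libraries lay close together and above all others. Its log2 fold change was 0.95 ± 0.11 (SE; limma adjusted p = 3.69e-05). UBE2C rose by 0.48, PTTG1 (securin, the inhibitor of separase) by 0.30 and ESPL1 (separase) by 0.48 on the log2 scale. MAD2L1, the checkpoint protein that holds CDC20, had 64.3, 67.7 and 52.7 FPKM in Control and 69.1, 67.9 and 73.4 FPKM in YAP-2SA cells and did not pass (log2 fold change 0.19, limma adjusted p = 0.102).

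The 7 centromere and kinetochore genes rose in 5 cases. NUF2, NDC80 and SPC25, subunits of the NDC80 complex that binds microtubules, rose by 0.33, 0.41 and 0.40 on the log2 scale, and CENPA, the histone of the centromere, by 0.39. BIRC5 (survivin, a subunit of the chromosomal passenger complex) had 39.6, 34.7 and 34.5 FPKM in Control, 37.2, 35.7 and 33.3 FPKM in YAP-S94A,S127A, 45.2, 37.4 and 49.8 FPKM in YAP-S127A and 49.98, 46.5 and 50.8 FPKM in YAP-2SA cells (log2 fold change 0.43, limma adjusted p = 0.00485 against Control). YAP-S127A and YAP-2SA libraries of BIRC5 overlapped. CENPE, a kinetochore kinesin, and CENPF, a kinetochore protein, did not pass. CENPE had 16.9, 22.2 and 30.6 FPKM in Control and 25.3, 18.2 and 24.02 FPKM in YAP-2SA cells, and its log2 fold change of -0.02 ± 0.24 (SE) was the lowest and the least precise of the 50 genes.

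Spindle proteins rose in 4 of 6 cases. TACC3, which stabilises the fibres that hold the kinetochores, had 54.6, 48.5 and 43.8 FPKM in Control, 49.7, 48.6 and 44.9 FPKM in YAP-S94A,S127A, 62.3, 57.5 and 57.1 FPKM in YAP-S127A and 77.8, 77.2 and 78.0 FPKM in YAP-2SA cells (log2 fold change 0.66, limma adjusted p = 4.15e-05 against Control). DLGAP5, NUSAP1 and TPX2, which assemble and stabilise spindle microtubules, rose by 0.55, 0.54 and 0.47 on the log2 scale. ASPM, a protein of the spindle poles, and HMMR, a spindle protein, did not pass, with log2 fold changes of 0.30 and 0.18.

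Chromosome and marker genes rose in 3 of 4 cases. MKI67, the proliferation marker Ki-67 that coats mitotic chromosomes, had 32.0, 27.5 and 28.9 FPKM in Control, 28.8, 29.2 and 27.6 FPKM in YAP-S94A,S127A, 37.2, 35.9 and 39.0 FPKM in YAP-S127A and 40.2, 39.5 and 43.2 FPKM in YAP-2SA cells. The YAP-S127A and YAP-2SA libraries of MKI67 did not overlap but lay close together. Its log2 fold change in YAP-2SA against Control cells was 0.46 (limma adjusted p = 0.000155). TOP2A, the topoisomerase that untangles sister chromatids, had 85.2, 84.6 and 80.2 FPKM in Control and 98.6, 121 and 112 FPKM in YAP-2SA cells (log2 fold change 0.40, limma adjusted p = 0.00546), and it did not pass after quantile normalization (adjusted p = 0.0618). The condensin subunit NCAPH rose by 0.32 on the log2 scale, and NCAPG, of the same complex, did not pass at 0.25.

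FOXM1, the transcription factor among the 50 genes, had 51.7, 42.3 and 42.3 FPKM in Control, 45.5, 45.1 and 44.1 FPKM in YAP-S94A,S127A, 57.5, 51.9 and 60.5 FPKM in YAP-S127A and 72.3, 64.4 and 70.8 FPKM in YAP-2SA cells. The YAP-2SA libraries were above all others. The log2 fold change against Control was 0.60 ± 0.09 (SE; limma adjusted p = 0.000214).

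The 10 genes that did not pass in YAP-2SA against Control cells were CENPE, KIF14, PBK, KIF11, CENPF, HMMR, MAD2L1, CDC25C, NCAPG and ASPM. Their longest annotated transcripts had a median length of 5121 bases, against 3025 bases for the 40 genes that rose. Across the 50 genes the log2 fold change was related to transcript length with Spearman's rho of -0.259 and Pearson's r of -0.247, against a rho of -0.109 over the 10765 loci tested with a length. With the Control level the relation was a rho of 0.349 and an r of 0.289 across the 50 genes, against a rho of -0.07 over those loci. Genes share libraries and are not independent replicates, and these are descriptions. Whether length or level had a part in the result was not tested.

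In YAP-S127A cells 4 of the 50 genes were higher than in Control cells and none was lower, against 4.56% of all loci higher, 1.75% lower and 6.31% in either direction. They were CDC20 (log2 fold change 0.42, limma adjusted p = 0.044), ANLN (0.38, adjusted p = 0.00495), MKI67 (0.34, adjusted p = 0.00938) and CDC25B (0.30, adjusted p = 0.0266). None of the 50 genes was past 2-fold, against 2.07% of all loci. The median log2 fold change of the 50 genes was 0.14, against 0.00 over all loci, and 18 genes had an unadjusted p under 0.05. The share of all loci at that unadjusted p was not counted. The 3 YAP-S127A libraries were above the 3 Control libraries in 16 genes, against 11.6% of all loci, and below them in none, against 9.74%. Without Control replicate 3 they were above the 2 other Control libraries in 16 genes, against 14.8% of all loci. They were then below them in 3 genes, against 15.4%, and 38 of the 50 genes had a higher mean in YAP-S127A cells. By role, the median log2 fold change without Control replicate 3 was lowest for checkpoint genes, at -0.01, against 0.05 with all libraries. Kinesins were at 0.02 in place of 0.06, cytokinesis genes at 0.17 in place of 0.21 and FOXM1 at 0.27 in place of 0.32. The number of genes called higher depended on single libraries: it was 2 without Control replicate 2, 2 without Control replicate 3 (3.42% of all loci higher), 2 without YAP-S127A replicate 1, 8 without Control replicate 1 and 7 without YAP-S127A replicate 2. The share of all loci is given for Control replicate 3 alone, so the other shifts cannot be told from shifts over all loci. CDC20 did not pass when any single library other than Control replicate 1 or YAP-S127A replicate 2 was left out. CDC25B did not pass without Control replicate 2 or 3 or without YAP-S127A replicate 1 or 3, while ANLN and MKI67 passed without each of the 12 libraries in turn. When the 6 libraries of these groups were fitted alone, none of the 50 genes passed (limma adjusted p of 0.0761 for ANLN and 0.0903 for MKI67), and 12 had an unadjusted p under 0.05, again without a count over all loci.

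In YAP-S94A,S127A cells none of the 50 genes differed from Control (limma, adjusted p under 0.05), and none had an unadjusted p under 0.05. The share of all loci called was 0.0864% higher, 0.093% lower and 0.179% in either direction. Log2 fold changes lay between -0.11 (KIF18A) and 0.18 (CDC25C), with a median of 0.01, and 27 of the 50 were above 0. Without Control replicate 3 they lay between -0.19 (KIF18A) and 0.22 (CDC25C), and 15 of the 50 genes had a higher mean in YAP-S94A,S127A cells. The 95% intervals, not adjusted for the number of loci, reached a median of 0.189 to either side on the log2 scale, from 0.127 to 0.536. Differences smaller than these could not be seen, and a call at an adjusted p under 0.05 asked for larger differences still. The YAP-S94A,S127A libraries were all above the Control libraries in 1 gene, against 4.7% of all loci. Without Control replicate 3 no gene was called either, and the YAP-S94A,S127A libraries were above the 2 other Control libraries in 1 gene and below them in 3, against 9.75% and 10.8% of all loci.

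**Figure D3:**
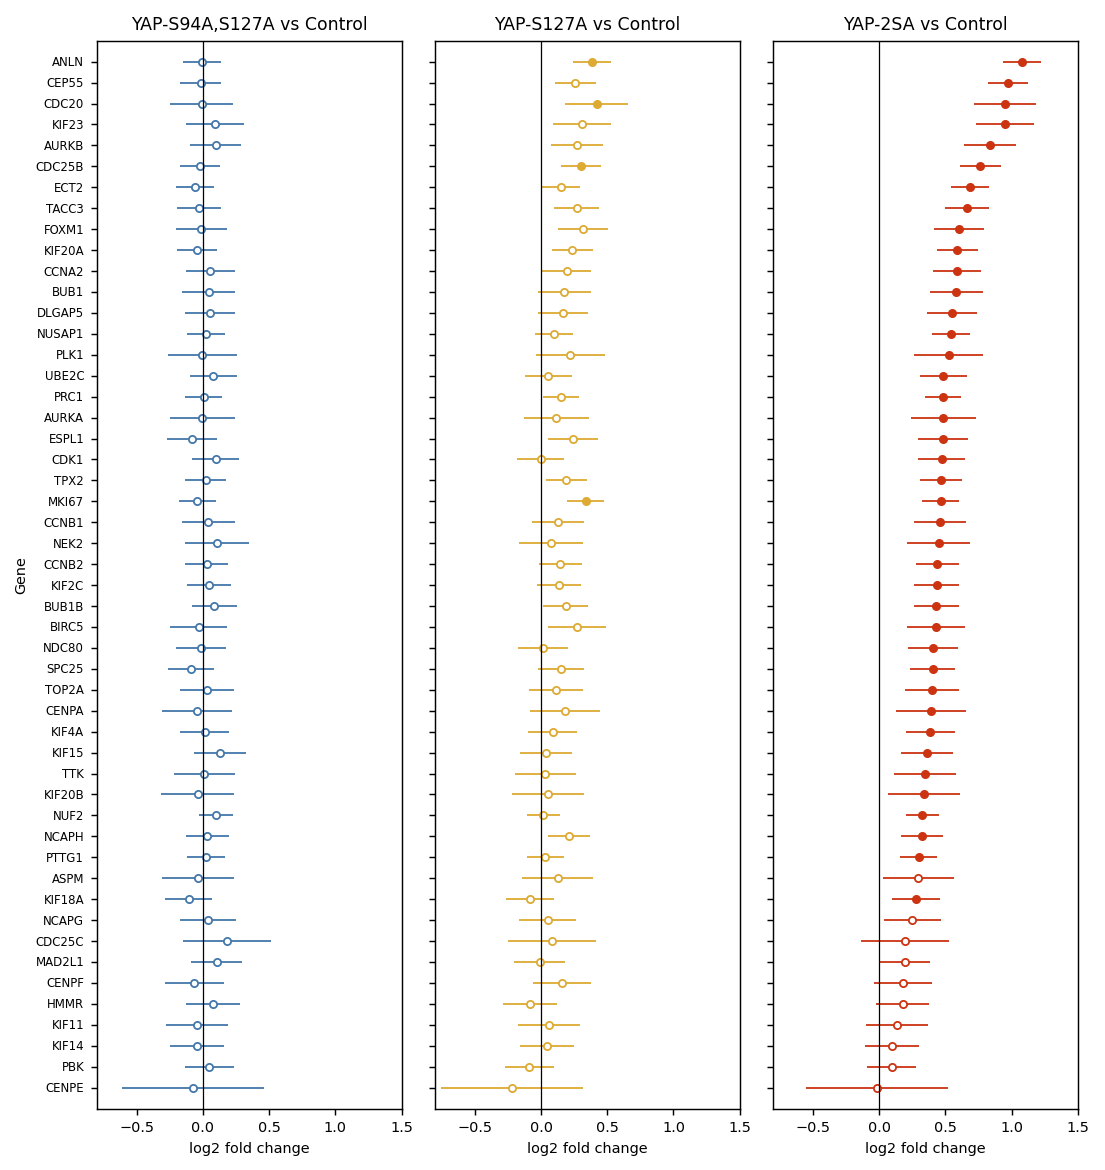
Log2 fold change of each of the 50 genes against Control in the 3 mutants (panels), with 95% intervals as bars and filled points where limma's adjusted p was under 0.05. Genes are ordered by the YAP-2SA panel, which has 40 filled points, against 4 in YAP-S127A and 0 in YAP-S94A,S127A, where the points lie around 0.

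The comparisons with Control share the same 3 Control libraries, so the mutants were also compared with each other. YAP-2SA cells exceeded YAP-S127A cells in 33 of the 50 genes and were lower in none, against 18.3% of all loci higher, 14.5% lower and 32.8% in either direction. The median log2 difference was 0.30. CEP55, ANLN and KIF23 differed by 0.71, 0.69 and 0.64 on the log2 scale. MKI67 (0.13, limma adjusted p = 0.153), BIRC5 (0.16, adjusted p = 0.253) and PLK1 (0.30, adjusted p = 0.0756) did not pass. The YAP-2SA libraries were above all YAP-S127A libraries in 38 genes, against 24.1% of all loci. TOP2A (0.28, adjusted p = 0.0384) did not pass without Control replicate 1 or 2, YAP-S127A replicate 1 or 3, YAP-S94A,S127A replicate 1, or YAP-2SA replicate 2 or 3.

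The S94A mutation is the labelled difference between YAP-S127A and YAP-S94A,S127A cells, a comparison that needs no Control library. YAP-S127A cells were higher in 9 of the 50 genes and lower in none, against 6.36% of all loci higher, 4.31% lower and 10.7% in either direction. They were CDC20 (0.43 on the log2 scale), ANLN (0.39), MKI67 (0.38), FOXM1 (0.33), CDC25B (0.32), ESPL1 (0.32), TACC3 (0.30), KIF20A (0.28) and CEP55 (0.28). The median difference of the 50 genes was 0.11, against -0.01 over all loci. The YAP-S127A libraries were above the YAP-S94A,S127A libraries in 18 genes, against 15.2% of all loci, and below them in 2, against 14.2%. The count was 3 without YAP-S127A replicate 1, 4 without YAP-S127A replicate 3, and 3, 4 and 2 without YAP-S94A,S127A replicates 1, 2 and 3. No share of all loci is given beside these counts, so shifts over all loci cannot be told apart from them. ANLN and MKI67 passed without each of the 12 libraries in turn, and CDC25B did not pass without YAP-S94A,S127A replicate 3. CDC20, FOXM1, TACC3 and CEP55 each lost the call when any of several single libraries of these 2 groups was left out.

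YAP-2SA cells were higher than YAP-S94A,S127A cells in 40 of the 50 genes and lower in none, against 23.2% of all loci higher, 20.3% lower and 43.5% in either direction. The median log2 difference was 0.41, and ANLN (1.09 on the log2 scale) and CEP55 were past 2-fold, against 7.81% of all loci higher under that rule. In 45 genes the YAP-2SA libraries were above the YAP-S94A,S127A libraries, against 29.7% of all loci.

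Across the 4 groups YAP-2SA cells had the highest mean in 49 of the 50 genes, and the YAP-S127A mean lay between Control and YAP-2SA in 44. Without Control replicate 3 the YAP-S127A mean was above the Control mean in 38 genes. These orders of means were not counted over all loci. In 37 genes the 3 YAP-2SA libraries were above the other 9 libraries, against 19.3% of all loci. The 50 genes also moved together between replicates: replicate 1 was the highest of its group for 36 genes in Control, 32 in YAP-S94A,S127A and 31 in YAP-S127A, but for 7 in YAP-2SA cells. The share over all loci was not counted. In the lists below, the median centred value of further mitosis genes was also highest in replicate 1 of Control, YAP-S94A,S127A and YAP-S127A. That of DNA replication genes was highest in replicate 1 of Control, YAP-S127A and YAP-2SA. The within-group SD of a gene among the 50 had a median of 0.106 on the log2 scale, against 0.128 over all loci, and ranged from 0.0633 to 0.331. As the median of the 50 centred values, the level of the set was -0.06, -0.16 and -0.24 in Control, -0.07, -0.19 and -0.15 in YAP-S94A,S127A, 0.05, -0.04 and -0.05 in YAP-S127A and 0.26, 0.29 and 0.33 in YAP-2SA libraries. The YAP-2SA libraries were separate from the rest. YAP-S127A lay above all YAP-S94A,S127A and Control libraries, Control replicate 1 and YAP-S127A replicate 3 by the smallest distance. The FPKM of the 50 genes summed to 1964 to 2277 in Control, 2094 to 2256 in YAP-S94A,S127A, 2266 to 2473 in YAP-S127A and 2961 to 3095 in YAP-2SA libraries.

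**Figure D4:**
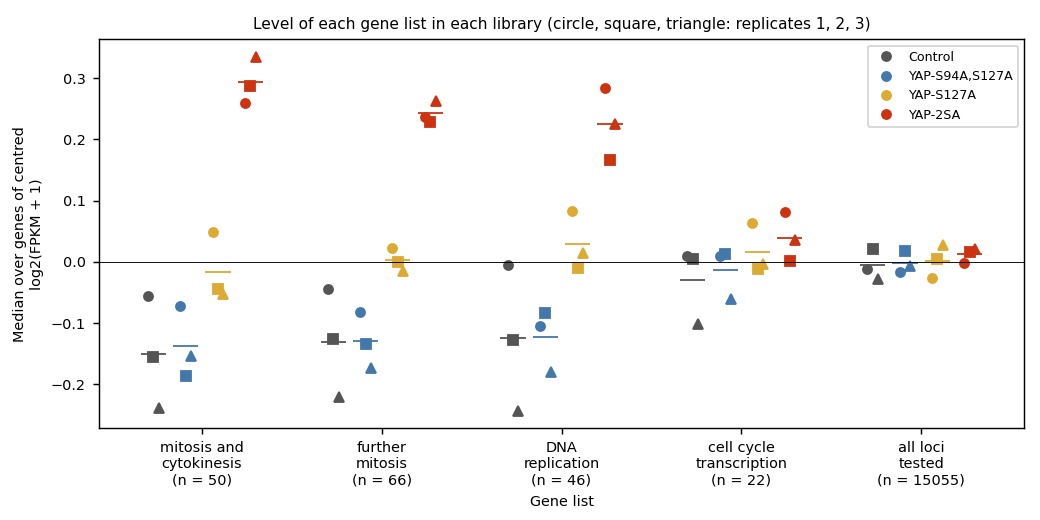
Median over genes of log2(FPKM + 1), centred per gene, for 5 sets of loci (x axis) in each library, with circles, squares and triangles for replicates 1, 2 and 3 and a line at the group mean. The YAP-2SA points are the highest of the mitosis and DNA replication sets, while those of the transcription regulators overlap with the other groups and those of all loci lie near 0.

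Other genes of the cell cycle were counted in lists by known role. Of 66 further mitosis genes 49 (74.2%) rose and 1 (1.52%) fell in YAP-2SA against Control cells, with a median log2 fold change of 0.35, against 22.9% of all loci higher and 19.5% lower. Without Control replicate 3, 39 rose and 1 fell, against 20% of all loci higher and 17.2% lower. FAM64A, a mitotic regulator of metaphase timing, had 13.4, 12.4 and 12.1 FPKM in Control and 32.2, 29.0 and 31.7 FPKM in YAP-2SA cells (log2 fold change 1.23), and PSRC1, a microtubule protein, rose by 0.91. INCENP was the gene that fell, with 45.1, 35.1 and 35.7 FPKM in Control and 30.2, 31.7 and 30.6 FPKM in YAP-2SA cells (log2 fold change -0.31, limma adjusted p = 0.0261). INCENP is the scaffold that holds AURKB and BIRC5 in the chromosomal passenger complex, and the RNA of those partners rose. INCENP did not pass without Control replicate 1, YAP-2SA replicate 1 or YAP-2SA replicate 3.

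Of 46 genes of DNA replication 30 (65.2%) rose and 1 (2.17%) fell in YAP-2SA against Control cells, with a median of 0.38 on the log2 scale, and 26 rose and 1 fell without Control replicate 3. TK1, which makes thymidine nucleotides, rose by 1.12 and MCM5, a subunit of the replicative helicase, by 0.73, while CCNE1, the cyclin of the G1 to S transition, fell by 0.41. Of 22 regulators of cell cycle transcription 4 (18.2%) rose and 2 (9.09%) fell, with or without Control replicate 3, and the median was 0.02. These shares are below the 22.9% and 19.5% of all loci. MYBL2, which encodes B-MYB, had 56.8, 52.0 and 44.6 FPKM in Control, 49.98, 48.9 and 42.3 FPKM in YAP-S94A,S127A, 77.3, 67.6 and 71.9 FPKM in YAP-S127A and 106, 87.8 and 101 FPKM in YAP-2SA cells (log2 fold change 0.93, limma adjusted p = 3.69e-05 against Control). E2F7, a repressor among the E2F factors, rose by 0.91. E2F6, another repressor, fell by 0.40 and NFYA, a subunit of NF-Y, fell by 0.22 on the log2 scale. CCNE1 did not pass without Control replicate 1, Control replicate 2 or YAP-2SA replicate 2. Without either of Control replicates 1 and 2 or any YAP-2SA replicate, 1 regulator fell in place of 2.

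In YAP-S127A against Control cells 2 of the 66 further mitosis genes, 6 of the 46 replication genes and 1 of the 22 regulators (MYBL2, log2 fold change 0.50, limma adjusted p = 0.0186) rose and none fell. These are 3.03%, 13% and 4.55% of the lists, against 4.56% of all loci higher, so the counts of mitosis genes and regulators are no higher than over all loci. Without Control replicate 3 these counts were 1, 1 and 0, without Control replicate 2 also 1, 1 and 0, without YAP-S127A replicate 1 they were 1, 2 and 0, and without Control replicate 1 they were 5, 8 and 1. Of all loci, 3.42% were higher without Control replicate 3, and no share is given for the other libraries left out. In YAP-S94A,S127A against Control cells no gene of the 3 lists was called.

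Genes of cell identity moved with YAP-2SA as well. Of 9 genes listed as markers of melanocytes and melanoma cells, SOX10 was at 233.8 to 281 FPKM in Control and 4.53 to 7.25 FPKM in YAP-2SA cells. S100B was at 41.3 to 51.7 and 0.606 to 1.03 FPKM, and NGFR at 8.13 to 15.0 and 7.72 to 7.99 FPKM. MITF was at 5.01 to 11.0 FPKM in Control and 30.2 to 41.1 FPKM in YAP-2SA cells, and AXL at 40.7 to 48.2 and 183 to 193.3 FPKM. The 9 genes summed to 343.8 to 400.2 FPKM in Control, 342.5 to 388.1 FPKM in YAP-S94A,S127A, 334.8 to 417.5 FPKM in YAP-S127A and 230.8 to 240.6 FPKM in YAP-2SA libraries. AXL, a receptor kinase that is high in undifferentiated melanoma cells, made up most of the last sum: without it the other 8 genes summed to 295.6 to 352.8 FPKM in Control, 306.2 to 345.1 FPKM in YAP-S94A,S127A, 245.4 to 323.2 FPKM in YAP-S127A and 46.9 to 56.6 FPKM in YAP-2SA libraries. Of 6 genes that mark blood, endothelial and epithelial cells, PTPRC, CD3E, PECAM1 and CDH5 stayed under 1 FPKM in every library. KRT5 was at most 0.0777 FPKM in Control and 1.37 to 1.67 FPKM in YAP-2SA cells, and KRT14 was at 6.16 to 7.62 and 0.362 to 0.551 FPKM. These 6 genes summed to 6.46 to 7.84 FPKM in Control, 7.20 to 7.62 FPKM in YAP-S94A,S127A, 6.75 to 11.6 FPKM in YAP-S127A and 2.55 to 2.59 FPKM in YAP-2SA libraries. The part of these changes in the levels of the mitotic genes was not tested.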

How the data were processed

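RNA of 12 libraries (TRIzol, Illumina TruSeq) was sequenced. Per the labels and the study's methods, the authors used bcl2fastq 2.15.0, Bowtie2 2.0.0, TopHat2 2.0.4 and Cufflinks 2.0.2 with hg19 and UCSC known genes, and deposited log2 values of FPKM plus 1 for 31588 entries, 3 of them duplicates. Read depth and the handling of reads that align to several places are not given in the sources used here. Loci with at least 1 FPKM in at least 3 libraries (15055) were fitted with limma 3.58.1 (R 4.3.3) with an intensity trend, 1 mean per group over all 12 libraries and 6 comparisons. A call was a Benjamini-Hochberg adjusted p under 0.05 over all loci tested, and a second rule also asked for a ratio of group mean FPKM over 2. Fold changes are differences of log2(FPKM + 1), so those of low genes are understated. The members and lists were chosen with earlier results of these data known, so no test was adjusted over a list alone. Members were read by symbol, from the row with the highest mean. Values by library were given for CEP55, 8 landmark genes, the 8 members with the largest change in YAP-2SA against Control and the 4 with the largest change in YAP-S127A against YAP-S94A,S127A, and other members by role. For CCNB1, PLK1, TOP2A and ECT2 only the Control and YAP-2SA libraries were printed. Of the other lists, the 2 largest rises and the 2 largest falls among called genes were named. KIF11, CDC25C, MAD2L1, CENPE and the single values of FAM64A, INCENP and MYBL2 were added after their values were seen. Promoters and the transcript lengths (GENCODE, GRCh37) came from reference tables. The fit was tested on simulated data. Figures were drawn with matplotlib 3.10.9 (Python 3.11.15).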

Additional observations from a re-analysis of the deposited data

How the results depend on the processing

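Of the 50 genes, the number lower was 0 in all 6 comparisons under all 21 alternatives, and no called fold change of the 15 genes given by library reversed. The number higher was 36 to 42 in YAP-2SA against Control and 35 to 42 in YAP-2SA against YAP-S94A,S127A cells over the 21 alternatives, and 0 in YAP-S94A,S127A against Control. No share of all loci is given beside the counts of this section, so shifts over all loci cannot be told apart from them. The comparisons with YAP-S127A depended most on the settings. In YAP-S127A against Control, where 4 genes rose, the number was 0 with only the 6 libraries compared (limma, with 12 genes at an unadjusted p under 0.05 and no share over all loci counted), 2 at an adjusted p under 0.01 and 2 to 8 with single libraries left out. In YAP-2SA against YAP-S127A, where 33 rose, it was 20 at an adjusted p under 0.01 and 23 to 35 with single libraries left out. In YAP-S127A against YAP-S94A,S127A, where 9 rose, it was 2 at an adjusted p under 0.01 and 2 to 10 with single libraries left out. Apart from the stricter threshold, the cause was not tested. Quantile normalization lowered the median log2 fold change of the 50 genes in YAP-2SA against Control from 0.44 to 0.36. Over all loci tested, same-numbered libraries did not deviate together: correlations of their deviations were -0.149 to 0.163, with 2 of 18 pairs over 0.1, and 5 of 12 libraries correlated best with their own number. With the replicate block 7 genes rose in YAP-S127A against Control and 41 in YAP-2SA against Control. The read depth behind each value is unknown, so the precision rests on the spread between 3 libraries.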
